A study of Mus musculus with 8 samples.

Results

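The genes described here encode actins, myosin light chains, tropomyosins, troponin and actin-binding proteins that are used in muscle contraction. The 10 genes (Acta2, Actc1, Actg2, Tagln, Cnn1, Myl7, Myl9, Tpm1, Tpm2 and Tnnc1) were taken by symbol from a table of 38610 symbols, and all 10 were among the 13188 genes tested. CJ9 mouse embryonic stem cells, of strain 129S4/SvJae, were differentiated by withdrawing leukemia inhibitory factor (LIF), a cytokine that holds them undifferentiated, and were harvested on day 4. The groups were wild-type cells (WT, n = 2 libraries), cells with a knockout of Evx1as (n = 3), a long noncoding RNA, and cells labelled as a knockout of EVX1 (n = 3), the homeobox gene beside which Evx1as lies. The 3 groups shared the cell line, strain, LIF withdrawal and day. RNA-seq of mRNA was reported as FPKM, a fragment count divided by the length of the transcript and by the size of the library. The labels name neither clones nor separate cultures, so p-values measure the spread between these libraries, which may be technical.

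In muscle, thick filaments of myosin pull on thin filaments of actin, and tropomyosin lies along the thin filament and gates the contact. In heart and skeletal muscle, calcium acts through troponin on that filament, while in smooth muscle it acts through phosphorylation of the myosin regulatory light chain. Many of the genes are controlled by serum response factor (SRF), which binds a sequence called the CArG box together with cofactors of the myocardin family. The same genes are also transcribed in early mesoderm and in cells that spread and form stress fibres, so they do not mark muscle alone.

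The Evx1as transcript was at 5.36 and 6.75 FPKM in WT and at 0.0549, 0.104 and 0.0485 FPKM in the Evx1as KO libraries. Evx1 itself was at 22.0 and 31.2 FPKM in WT, at 2.45, 3.84 and 0.541 FPKM in Evx1as KO and at 26.3, 20.8 and 31.7 FPKM in the libraries labelled EVX1 KO. Both transcripts fell in Evx1as KO (log2 fold changes -2.72 ± 0.21 SE and -3.20 ± 0.41 SE). In EVX1 KO the difference in Evx1 was -0.01 ± 0.41 SE (adjusted p = 0.988), so its transcript level gives no check of that label. Summed FPKM lay between 531523 and 587798 per library and 12244 to 12442 genes reached 1 FPKM. Read counts were not analysed here, so the absolute depth is unknown. Relative depth, estimated from how finely low values were spaced, lay between 0.865 and 1.197 times that of WT replicate 1.

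CArG boxes are known from the promoters of many of these genes, so the bases before their start sites were read. RefSeq promoters (GRCm38.p6, mouse strain C57BL/6J) were found for 8 of the 10 genes, without Actg2 and Tagln. The box was searched on both strands as CC, then 6 bases that are each A or T, then GG, from 250 bases before to 50 bases after the start. It was found in 1.63% of 32851 promoters and in 3 of the 8: Actc1 at -47, Myl7 at -61 and Myl9 at -161, counted to the first base of the match. A form with 1 G or C among the 6 central bases was in 8.5% of promoters, and in those of Acta2 (-84 and -34), Actc1 (-175, -138 and -87) and Myl9 (-99). The promoters of these 4 genes are shown because they hold the matches. Each gives 250 bases upstream of the start, 5′ to 3′ on the gene's strand, and capitals mark both forms of the box.
Acta2: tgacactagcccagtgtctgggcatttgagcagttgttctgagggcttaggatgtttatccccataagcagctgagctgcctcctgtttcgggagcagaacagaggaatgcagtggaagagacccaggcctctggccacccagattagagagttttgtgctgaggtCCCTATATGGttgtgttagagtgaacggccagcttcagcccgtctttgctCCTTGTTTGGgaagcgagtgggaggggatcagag
Actc1: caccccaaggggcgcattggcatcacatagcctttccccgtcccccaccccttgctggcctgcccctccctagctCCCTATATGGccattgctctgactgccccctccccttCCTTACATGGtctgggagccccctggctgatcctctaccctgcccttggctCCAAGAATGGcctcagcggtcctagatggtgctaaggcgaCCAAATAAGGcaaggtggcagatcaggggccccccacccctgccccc
Myl7: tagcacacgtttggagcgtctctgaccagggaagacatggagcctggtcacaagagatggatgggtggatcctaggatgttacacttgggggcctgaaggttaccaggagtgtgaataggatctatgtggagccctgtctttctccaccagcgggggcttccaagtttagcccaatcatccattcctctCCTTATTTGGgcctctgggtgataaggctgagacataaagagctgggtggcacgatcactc
Myl9: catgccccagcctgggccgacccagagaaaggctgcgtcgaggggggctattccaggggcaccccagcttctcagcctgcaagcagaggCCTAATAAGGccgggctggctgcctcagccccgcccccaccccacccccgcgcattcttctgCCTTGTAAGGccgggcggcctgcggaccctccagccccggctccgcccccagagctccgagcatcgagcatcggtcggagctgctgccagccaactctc
The windows are chr19:34255374-34255623 (minus strand) for Acta2, chr2:114052876-114053125 (minus) for Actc1, chr11:5898783-5899032 (minus) for Myl7 and chr2:156775214-156775463 (plus) for Myl9. The letters CCCTATATGG stand in both the Acta2 and the Actc1 window. CATTCC, a sequence bound by TEAD factors, was found on either strand in the promoters of Acta2, Myl7, Tpm1 and Tnnc1, 4 of the 8, against 14.7% of all promoters. TATAAA was found in 1 of the 8 (Actc1, at 34) and in 13.6% of all promoters. A match says only that these letters are in the reference window.

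The 10 genes covered a wide range of levels per transcript length. By the mean over the 8 libraries, Tpm1 was highest at 1171 FPKM, followed by Tagln at 466, Acta2 at 67.7, Cnn1 at 39.8, Myl9 at 39.4, Tpm2 at 34.7, Actc1 at 12.9, Tnnc1 at 10.7, Myl7 at 4.08 and Actg2 at 0.794 FPKM. Cnn1, Myl9 and Tpm2 stand next to each other in this order and their libraries overlapped widely. The genes also varied to different degrees: the highest library was 43.4 times the lowest for Myl7, 15.5 times for Actg2 and 11.1 times for Acta2, against 1.52 times for Tpm1. Tpm1 was the most even of the 10 genes across the 8 libraries. The labelled cell type was set beside a list of 8 pluripotent cell markers, whose levels in the 8 libraries were uneven. Pou5f1 was at 302 to 458 FPKM, Utf1 at 62.1 to 294, Lin28a at 91.2 to 136 and Nanog at 25.0 to 128 FPKM. Sox2 was at 11.7 to 56.7 FPKM, Dppa4 at 17.8 to 33.4, Zfp42 at 8.34 to 16.7 and Esrrb at 0.555 to 2.71 FPKM. Several genes of mature muscle were low. Smooth muscle myosin Myh11 did not pass 0.580 FPKM, myosin light chain kinase Mylk 0.118 and cardiac troponin T Tnnt2 1.39. Cardiac myosins Myh6 and Myh7 did not pass 0.540 and 0.708, and titin (Ttn) 0.220 FPKM. Other genes of smooth muscle and the sarcomere were higher. Acta1 was at 68.0 to 648 FPKM, Csrp1 at 151 to 445, Pdlim7 at 99.5 to 195 and Cald1 at 99.6 to 163. Smtn was at 32.2 to 50.1 FPKM, Des at 8.98 to 17.7 and Lmod1 at 2.75 to 9.24 FPKM.

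**Figure D1:**
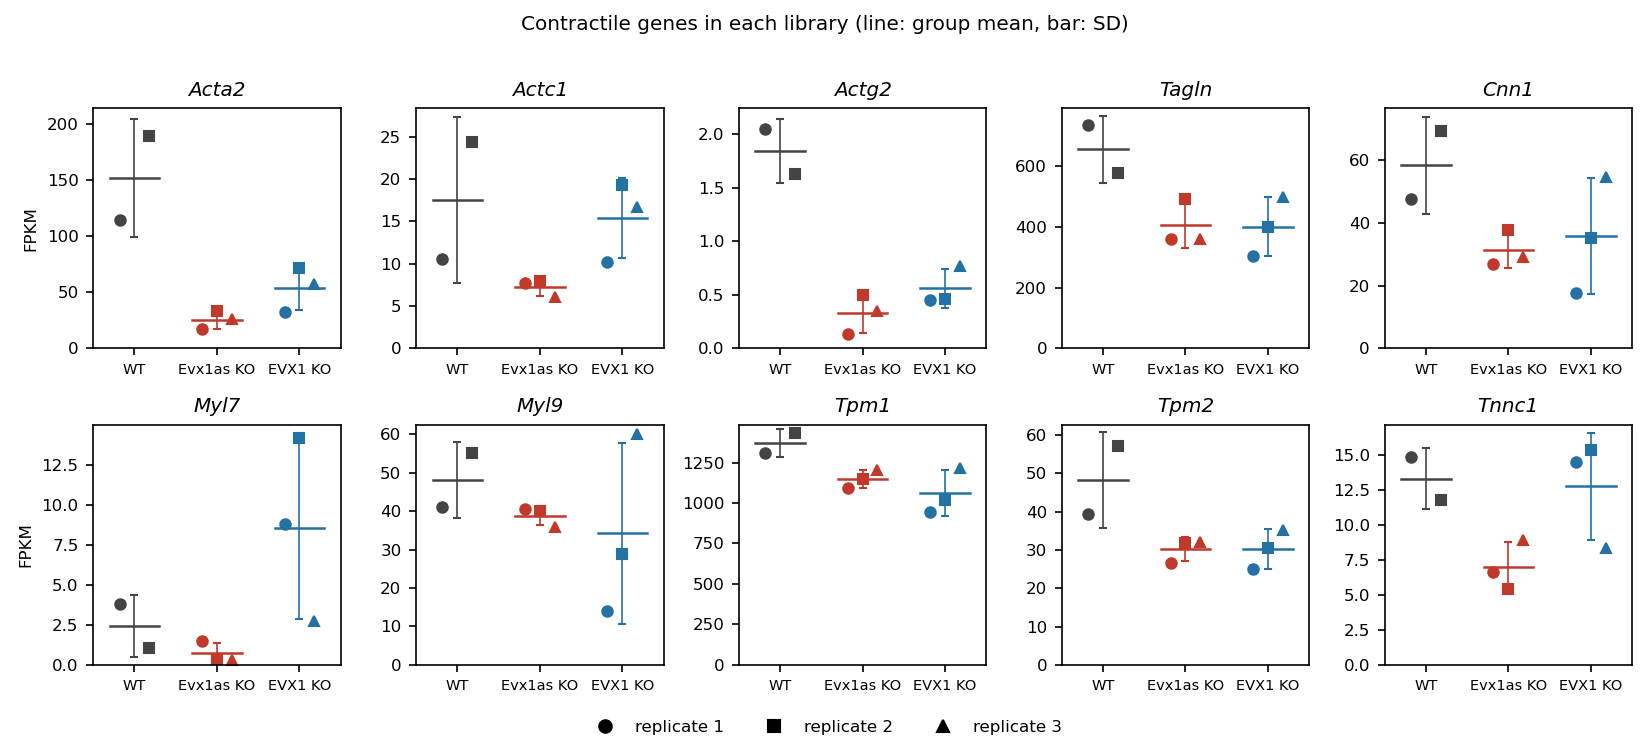
Expression of the 10 contractile genes in each library, in FPKM on linear axes that start at 0 and differ between panels. Points are libraries (shape gives the replicate number), horizontal lines are group means and bars are SD (n = 2 WT, 3 Evx1as KO, 3 EVX1 KO). The 3 Evx1as KO points lie below both WT points in every panel but that of Myl7, and Myl7 is highest in EVX1 KO replicates 1 and 2.

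Loss of Evx1as came with lower contractile gene levels. In Evx1as KO against WT, Acta2, Actg2, Actc1, Tagln, Tpm2 and Tnnc1 fell, that is 6 of the 10, and none rose (limma, Benjamini-Hochberg adjusted p under 0.05 over all 13188 genes). At an unadjusted p under 0.05, 0 of the 10 were higher, against 20.4% of all genes. Of all genes tested, 24.5% were called in this comparison and 11.4% were called lower. Every Evx1as KO library was below both WT libraries for 9 of the 10 genes, against 26.2% of all genes, and the libraries overlapped for Myl7. The median log2 fold change of the 10 was -0.86, beside 0.02 for all genes tested. In bulk RNA, fewer cells of a type and less RNA per cell cannot be told apart. Fold changes are on the log2(FPKM + 1) scale, which understates the change of low genes such as Actg2 and Myl7.

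The largest falls on this scale were in the actins. Acta2 encodes alpha smooth muscle actin and lies at chr19:34314825-34329863 in the coordinates of the deposited table. It was at 115 and 189 FPKM in WT and at 17.1, 33.1 and 26.4 FPKM in Evx1as KO. The groups were far apart: the lowest WT library was well above the highest knockout library, and the WT mean (152 ± 52.8 SD) was 5.96 times that of Evx1as KO (25.5 ± 8.04 SD). Its log2 fold change was -2.53 ± 0.36 SE (limma adjusted p = 0.00263), and it was called in all 18 alternative analyses. Actg2, the enteric smooth muscle actin (chr6:83462902-83486245), was at 2.05 and 1.63 FPKM in WT and at 0.132, 0.5 and 0.352 FPKM in Evx1as KO. It was the lowest of the 10 genes and stayed below 1 FPKM in each knockout library, with a log2 fold change of -1.10 ± 0.20 SE (limma adjusted p = 0.00577). Actc1, the cardiac alpha actin (chr2:113873024-113878547), was at 10.6 and 24.4 FPKM in WT and at 7.70, 7.97 and 6.04 FPKM in Evx1as KO. The WT libraries differed from each other by more than the knockouts did, and WT replicate 1 was only just above the knockout range. The Actc1 log2 fold change was -1.07 ± 0.33 SE (limma adjusted p = 0.0465).

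Among the actin-binding and thin-filament genes the falls were smaller. Tagln encodes transgelin (SM22), an actin cross-linking protein of smooth muscle (chr9:45737710-45744141). It was at 733 and 576 FPKM in WT and at 361, 492 and 361 FPKM in Evx1as KO, with a log2 fold change of -0.70 ± 0.21 SE (limma adjusted p = 0.0438). Tpm2, beta tropomyosin (chr4:43526597-43536426), was at 39.4 and 57.1 FPKM in WT and at 26.6, 31.8 and 32.2 FPKM in Evx1as KO. Its 3 knockout libraries were close together and below both WT libraries, and its log2 fold change was -0.64 ± 0.18 SE (limma adjusted p = 0.0335). Tnnc1, the calcium-binding troponin C of cardiac and slow muscle (chr14:32021497-32024897), was at 14.8 and 11.8 FPKM in WT and at 6.62, 5.43 and 8.94 FPKM in Evx1as KO. The groups did not overlap and the log2 fold change was -0.85 ± 0.26 SE (limma adjusted p = 0.0424). Chromosome 14 genes averaging 5 FPKM or more had median log2 deviations of -0.36 and -0.34 in Evx1as KO replicates 2 and 3, and of 0.13 in replicate 1. Tnnc1 was at 6.62 FPKM in replicate 1, where that median was not low; the part of this chromosome-wide shift in the Tnnc1 result was not tested.

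Tpm1, Cnn1, Myl9 and Myl7 did not pass the test. Tpm1, alpha tropomyosin (chr9:66870399-66897020), was at 1311 and 1430.2 FPKM in WT and at 1095, 1146 and 1202 FPKM in Evx1as KO, without overlap and with a small difference (log2 -0.26 ± 0.11 SE, limma adjusted p = 0.127). Cnn1, the calponin of smooth muscle that binds actin and slows myosin (chr9:21903696-21913665), was at 47.6 and 69.3 FPKM against 26.9, 37.8 and 29.1 FPKM (log2 -0.87 ± 0.38 SE, limma adjusted p = 0.129). Its difference is as large as that of Tnnc1 with a wider error, and it was called in 3 of 18 alternatives. Myl9, the smooth muscle regulatory light chain (chr2:156601199-156607393), was at 41.1 and 55.0 FPKM against 40.5, 39.9 and 36.0 FPKM, so the groups nearly touched (log2 -0.29 ± 0.45 SE, limma adjusted p = 0.677). Myl7, the atrial regulatory light chain (chr11:5796639-5798785), was at 3.78 and 1.05 FPKM against 1.47, 0.346 and 0.326 FPKM, and the groups overlapped (log2 -0.93 ± 0.57 SE, limma adjusted p = 0.263).

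Acta2 aside, the calls in Evx1as KO depended on the libraries used or, for Actg2, were not tested without either WT library. Of 18 alternatives, Actc1 and Tagln were called in 10, Tnnc1 in 11 and Tpm2 in 12. Actg2 was called in all 15 that tested it. It reached 1 FPKM only in the 2 WT libraries, so it failed the filter when either was left out. It also failed the filter of 5 FPKM. Those fits tested 9 of the 10 genes. The count of called genes fell from 6 to 1 without WT replicate 2, to 2 without Evx1as KO replicate 1, and to 3 without WT replicate 1, Evx1as KO replicate 2, Evx1as KO replicate 3 or EVX1 KO replicate 2. It was also 2 with no filter on low values and 3 with no intensity trend.

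**Figure D2:**
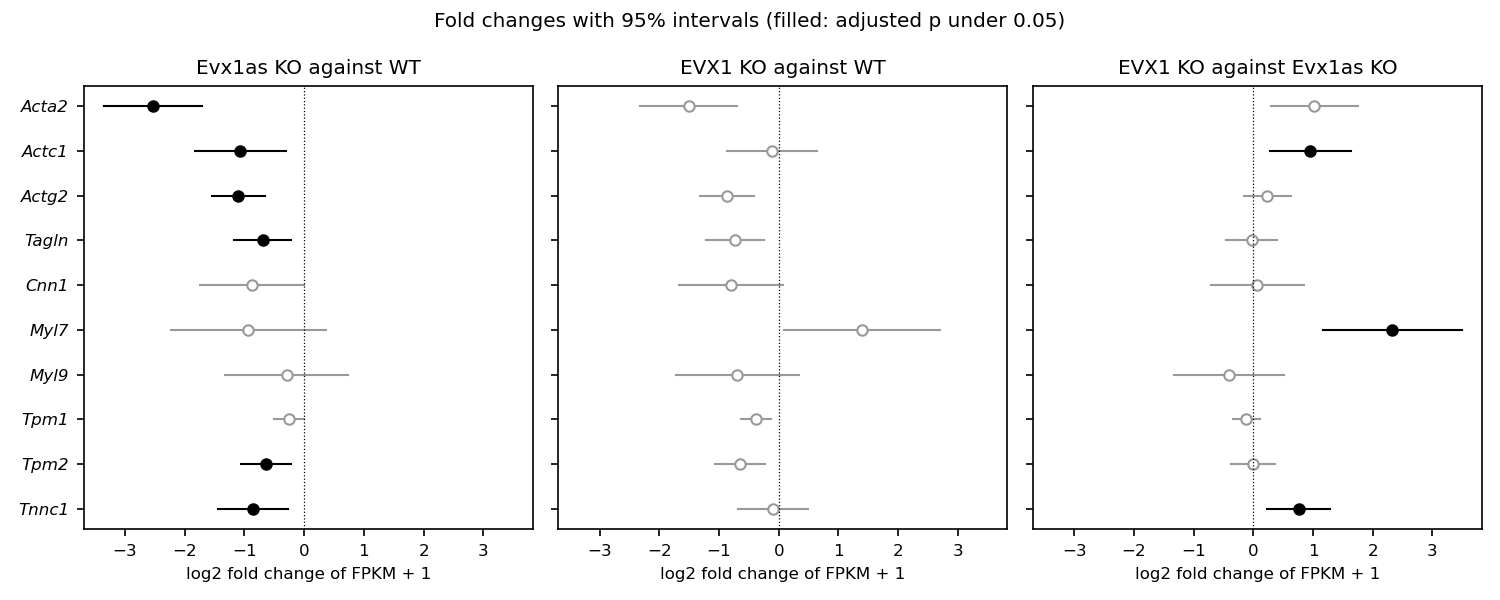
Log2 fold changes of the 10 genes on the log2(FPKM + 1) scale in the 3 comparisons, with 95% confidence intervals from limma; filled points are calls at an adjusted p under 0.05. All 10 points lie below 0 for Evx1as KO against WT, and Myl7 is the only point above 0 for EVX1 KO against WT.

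In the libraries labelled EVX1 KO, limma called none of the 10 genes against the same 2 WT libraries. Of all genes 1.24% were called in this comparison, 0.690% higher and 0.554% lower. At an unadjusted p under 0.05, 5 were lower (Acta2, Actg2, Tagln, Tpm1 and Tpm2) and 1 was higher (Myl7), against 9.92% and 11.3% of all genes. For those 5 genes every EVX1 KO library was below both WT libraries, which held for 17.9% of all genes. The median log2 difference of the 10 was -0.67, beside 0.02 for all genes.

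Acta2 was at 32.5, 71.4 and 57.4 FPKM in EVX1 KO. All 3 values were below both WT libraries, and the WT mean was 2.83 times the EVX1 KO mean (53.7 ± 19.7 SD). The log2 difference was -1.51 ± 0.36 SE with a 95% interval from -2.33 to -0.69 (limma adjusted p = 0.0750). Acta2 was called in 1 of 18 alternatives, with the replicate number as a block (limma adjusted p = 0.00775). Actg2 was at 0.451, 0.463 and 0.766 FPKM, below both WT libraries in each replicate (log2 -0.87 ± 0.20 SE, limma adjusted p = 0.0671). Tagln was at 303, 399 and 498 FPKM, and Tpm2 at 25.0, 30.5 and 35.2 FPKM. Their EVX1 KO means, 400.2 ± 97.6 SD and 30.2 ± 5.11 SD, were close to those of Evx1as KO (405 ± 75.1 SD and 30.2 ± 3.13 SD), with limma adjusted p of 0.112 and 0.104 against WT. Tpm1 was at 943, 1021 and 1218 FPKM (log2 -0.38 ± 0.11 SE, limma adjusted p = 0.114). Cnn1 was at 17.6, 35.3 and 54.6 FPKM and Myl9 at 13.9, 28.8 and 59.9 FPKM. For both the range within EVX1 KO exceeded the difference of the means from WT, and the highest EVX1 KO library lay inside the WT range for Cnn1 and above it for Myl9.

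Actc1 and Tnnc1 were near their WT levels in EVX1 KO. Actc1 was at 10.2, 19.3 and 16.6 FPKM, with a log2 difference from WT of -0.11 and a 95% interval from -0.87 to 0.64. Tnnc1 was at 14.5, 15.4 and 8.35 FPKM, with a log2 difference of -0.09 and an interval from -0.68 to 0.50. These intervals are wide enough to hold falls of the size of several of the other genes. Myl7 was at 8.77, 14.2 and 2.74 FPKM. Replicates 1 and 2 were above both WT libraries and replicate 3 was between them, with a log2 difference of 1.39 ± 0.57 SE (limma adjusted p = 0.209).

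The 3 EVX1 KO libraries differed from each other along this gene group. Tagln, Cnn1, Myl9, Tpm1, Tpm2 and Actg2 were lowest in replicate 1 and highest in replicate 3, while Myl7 and Tnnc1 were lowest in replicate 3. Without EVX1 KO replicate 3, 4 of the 10 genes were called against WT: Actg2 (limma adjusted p = 0.0452), Tagln (0.0427) and Tpm1 (0.0336) were lower and Myl7 (0.0472) was higher. With limma's array weights 5 were called (Actg2, Tagln, Tpm1 and Tpm2 lower, Myl7 higher). The summed level of a list of extraembryonic endoderm markers moved with this split. It was 42.9 and 47.0 FPKM in EVX1 KO replicates 1 and 2 and 24.3 in replicate 3. In WT it was 17.9 to 19.6 FPKM, and in Evx1as KO 8.48 to 13.9 FPKM. Within EVX1 KO, Sox17 (8.81, 8.48 and 2.27 FPKM), Foxa2 (11.8, 14.3 and 5.93 FPKM), Dab2 and Lama1 were lowest in replicate 3. Gata6 was lowest in replicate 1 (6.37, 10.4 and 6.91 FPKM). Afp, Ttr and Sox7 did not pass 0.170 FPKM in EVX1 KO. The summed level of the neural marker list also differed, at 33.0, 60.9 and 80.0 FPKM in EVX1 KO replicates 1, 2 and 3. It was lowest and highest in the same libraries as Tagln, Cnn1, Myl9, Tpm1, Tpm2 and Actg2. Most of this sum was Nes (26.2, 50.7 and 62.8 FPKM), followed by Tubb3 (2.74, 7.74 and 14.5 FPKM). Sox3 was instead highest in replicate 1 (4.01, 2.43 and 2.70 FPKM). Sox1 did not pass 0.0679 FPKM in EVX1 KO, and Pax6 was listed at 0 in its 3 libraries. In the same order, the sums were 25.4, 33.6 and 34.6 FPKM for fibroblast or feeder markers, 19.4, 26.9 and 22.5 FPKM for endothelium markers and 668, 687 and 688 FPKM for pluripotent cell markers. The part of these cell types in the differences between the EVX1 KO libraries, and in the Myl7 result, was not tested.

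The knockouts were then compared with each other in the same fit. Myl7, Tnnc1 and Actc1 were higher in EVX1 KO than in Evx1as KO, 3 of the 10, and none was lower. At an unadjusted p under 0.05, 0 of the 10 were lower, against 19.1% of all genes. Of all genes, 22.0% were called in this comparison and 10.7% were called higher. Every EVX1 KO library was above every Evx1as KO library for Actc1 and Myl7, 2 of the 10, a share no higher than the 20.1% of all genes. The median log2 difference of the 10 was 0.15.

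Myl7 had the widest separation, with means of 8.56 ± 5.71 SD FPKM in EVX1 KO and 0.714 ± 0.654 SD FPKM in Evx1as KO. The log2 difference was 2.32 ± 0.51 SE with a 95% interval from 1.16 to 3.49 (limma adjusted p = 0.0142). It was called in 15 of 18 alternatives, and the adjusted p was 0.0560 without Evx1as KO replicate 3, 0.05004 without EVX1 KO replicate 2 and 0.0536 with no filter on low values. Actc1 differed by 0.95 ± 0.30 SE (limma adjusted p = 0.0498) and Tnnc1 by 0.76 ± 0.23 SE (0.0461), both beside the threshold. The chromosome 14 median was 0.17, 0.18 and 0.16 in EVX1 KO replicates 1, 2 and 3, against 0.13, -0.36 and -0.34 in Evx1as KO, so it was higher in EVX1 KO, as Tnnc1 was; its part in the Tnnc1 difference was not tested. Actc1 was called in 10 of 18 alternatives and Tnnc1 in 8, and for Tnnc1 EVX1 KO replicate 3 (8.35 FPKM) was below Evx1as KO replicate 3 (8.94 FPKM). The count of called genes was 0 without EVX1 KO replicate 2 or with no filter on low values, and 1 without Evx1as KO replicate 1 or 3 or with no intensity trend. Acta2 was higher in EVX1 KO by 1.02 ± 0.32 SE and missed the threshold (limma adjusted p = 0.0515), with 1 EVX1 KO library (32.5 FPKM) inside the Evx1as KO range. It was called in 5 of 18 alternatives, among them without Evx1as KO replicate 2 (limma adjusted p = 0.0421) and without EVX1 KO replicate 1 (0.0175).

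For the other 6 genes no difference between the knockouts was detected. The log2 difference was -0.03 for Tagln, with a 95% interval from -0.46 to 0.40, and -0.01 for Tpm2, with an interval from -0.37 to 0.36. For Cnn1 it was 0.07 ± 0.34 SE (limma adjusted p = 0.906), for Myl9 -0.40 ± 0.41 SE (0.506), for Tpm1 -0.12 ± 0.10 SE (0.415) and for Actg2 0.24 ± 0.18 SE (0.365). Myl9 was called lower in EVX1 KO when replicate 3 was left out (log2 -0.91, limma adjusted p = 0.0421).

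The muscle actins were set against the actins found in every cell. Acta1, skeletal alpha actin, is not among the 10 genes and was the most abundant muscle actin per length. It was at 648 and 398 FPKM in WT, 68.0, 158 and 81.3 FPKM in Evx1as KO and 91.7, 179 and 277 FPKM in EVX1 KO. It fell in Evx1as KO (log2 -2.40 ± 0.47 SE, limma adjusted p = 0.00810; 0.0698 without WT replicate 1). In EVX1 KO its difference was -1.61 ± 0.47 SE (limma adjusted p = 0.109). The genes of its chromosome, chromosome 8, had medians of -0.38, -0.30 and 0.085 in EVX1 KO replicates 1, 2 and 3. These medians were 0.11 and 0.0091 in WT and 0.16, 0.15 and 0.15 in Evx1as KO. The part of this shift in the Acta1 difference was not tested. Acta1, Acta2, Actc1 and Actg2 together made up 9.62% and 7.32% of the summed FPKM of all actins in WT, 1.35%, 2.76% and 1.73% in Evx1as KO and 2.68%, 4.19% and 4.65% in EVX1 KO. The rest was Actb and Actg1, the cytoplasmic actins. Actb was at 3729 and 4025 FPKM in WT, 3220.1, 3259 and 2922 in Evx1as KO and 2373, 3302 and 3642 in EVX1 KO. The ratio of Acta2 to Actc1 was 10.8 and 7.77 in WT, between 2.22 and 4.36 in Evx1as KO and between 3.20 and 3.70 in EVX1 KO, so Acta2 took a smaller part beside Actc1 in all 6 knockout libraries. Of the summed FPKM of Tpm1, Tpm2, Tpm3 and Tpm4, Tpm1 made up 67.9% to 74.7% in the 8 libraries. Exact 50-base stretches of Acta2 transcripts that also occur in another gene were 7 of 2146 (0.326%), and none was found for the other 9 genes.

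**Figure D3:**
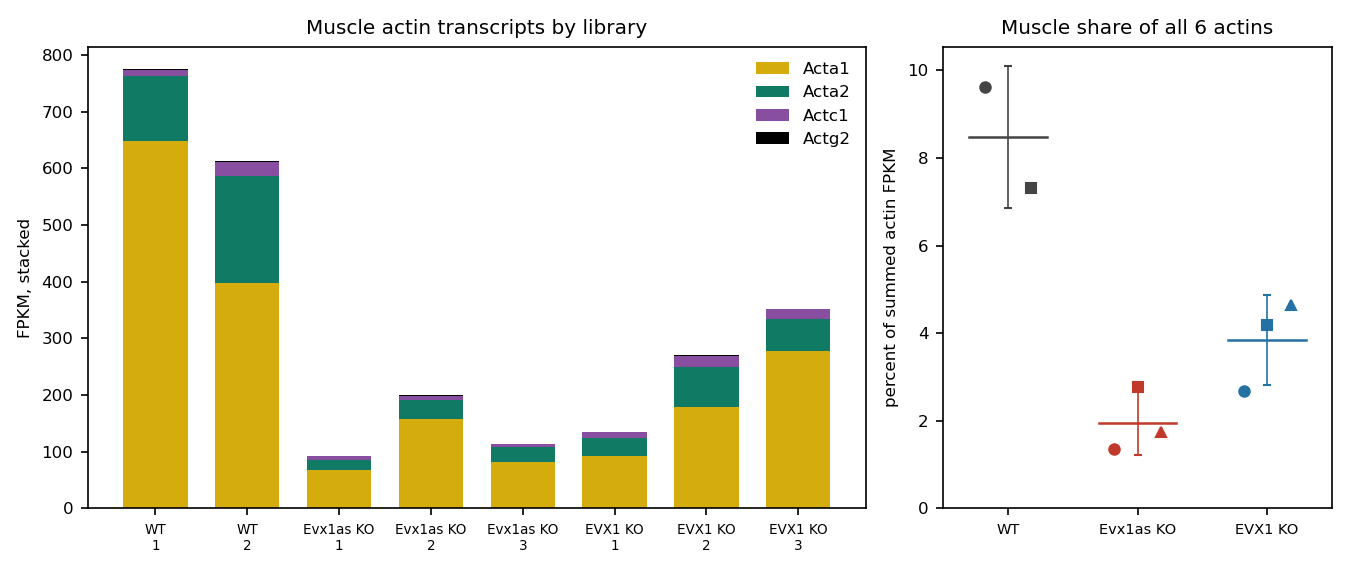
Left, FPKM of the 4 muscle actins stacked for each library on a linear axis from 0. Right, their share of the summed FPKM of all actins by group, with points for libraries (shapes give the replicate number as in the plot of gene levels), lines for means and bars for SD. The WT libraries stand at 7.32% and 9.62%, above all 6 knockout libraries, which lie between 1.35% and 4.65%.

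Other smooth muscle and cytoskeletal genes were read from lists. Of 7 tested genes of a list of 10 further smooth muscle genes, 3 fell and 1 rose in Evx1as KO, with a median log2 fold change of -0.41. Csrp1, a LIM protein of smooth muscle, was at 418 and 445 FPKM in WT and at 151, 193 and 154 FPKM in Evx1as KO (log2 -1.38 ± 0.19 SE, limma adjusted p = 0.00218). Lmod1, which nucleates actin filaments in smooth muscle, fell by 1.19 on the log2 scale (limma adjusted p = 0.00263). Cald1, caldesmon, fell by 0.41 (0.0275), and Csrp2 rose by 0.43 (0.0299); these were called in 14 and 12 of 18 alternatives, and neither was called without WT replicate 2, Evx1as KO replicate 1 or Evx1as KO replicate 3, nor Csrp2 without WT replicate 1. Of 16 genes of the nonmuscle actin and myosin cytoskeleton, 6 fell and 2 rose. Tagln2, the widely expressed relative of Tagln, fell by 1.03 on the log2 scale (limma adjusted p = 0.00111), and Actn1 (an alpha-actinin) by 0.86 (0.00401). In EVX1 KO against WT limma called none of either list. At an unadjusted p under 0.05, 5 of the 7 smooth muscle genes were lower and 0 higher, and 4 of the 16 nonmuscle genes were lower and 1 higher. Between the knockouts Csrp1 (log2 0.95) and Tagln2 (0.97) were higher in EVX1 KO, and Csrp2 was lower (-0.85), each in all 18 alternatives. Lmod1 was also higher (0.59) and Des lower (-0.61), called in 13 and 14 of 18 alternatives. Only 9 of 20 further sarcomere genes passed the filter on low values, and Acta1 was the 1 called in Evx1as KO; none was called by limma in the other comparisons (1 lower in each at an unadjusted p under 0.05).

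The regulators of the CArG box were also read. Srf was at 46.8 and 59.3 FPKM in WT, 53.8, 48.9 and 42.5 in Evx1as KO and 36.1, 44.5 and 51.6 in EVX1 KO. The 3 groups overlapped, and the log2 difference from WT was -0.13 ± 0.17 SE in Evx1as KO (limma adjusted p = 0.614) and -0.27 in EVX1 KO (0.383). Of the SRF cofactors, myocardin (Myocd) was at most 0.219 FPKM in any library, and Mkl1 was not called (log2 -0.21 ± 0.09 SE in Evx1as KO, limma adjusted p = 0.136). Mkl2 was at 8.18 and 7.97 FPKM in WT and at 5.76, 5.97 and 5.44 FPKM in Evx1as KO, and fell by 0.43 (limma adjusted p = 0.0180). Its call was lost without WT replicate 1, WT replicate 2 or Evx1as KO replicate 3, with adjusted p up to 0.0881. Of 14 tested genes in the list of SRF regulators and targets, 7 fell in Evx1as KO and none rose, and in EVX1 KO 1 fell (Ctgf, log2 -1.08, limma adjusted p = 0.0276, called in 13 of 18 alternatives and not without either WT replicate or EVX1 KO replicate 1 or 2). Of 11 genes of TGF-beta signalling, which induces many smooth muscle genes, 5 fell in Evx1as KO. Tgfb2 encodes a ligand of the pathway and went from 19.2 and 18.6 FPKM in WT to 3.57, 6.02 and 3.94 FPKM, a fall of 1.88 on the log2 scale (limma adjusted p = 7.78e-04).

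Myl7 and Tnnc1 are used in the heart, so genes of cardiac mesoderm and of endoderm were set beside them. All 8 tested genes of a list of 14 cardiac and mesoderm regulators fell in Evx1as KO against WT. All 8 were higher in EVX1 KO than in Evx1as KO. None was called by limma in EVX1 KO against WT (2 higher at an unadjusted p under 0.05). Gata4, Gata6, Hand2 and Mesp1 were below 1 FPKM in every Evx1as KO library. They passed the filter only through the other groups, so the counts of 8 are partly set by the filter. Hand1, T and Eomes were above 1 FPKM in all 8 libraries. Gata4, a transcription factor of heart and endoderm, was at 16.0 and 6.74 FPKM in WT, 0.280, 0.794 and 0.496 in Evx1as KO and 13.6, 27.0 and 18.9 in EVX1 KO. Between the knockouts it differed by 3.74 ± 0.31 SE on the log2 scale (limma adjusted p = 3.18e-04). Hand2, a heart and limb factor, was at 2.27 and 0.584 FPKM in WT and at 2.37, 5.42 and 2.84 FPKM in EVX1 KO. It was listed at 0 in the 3 Evx1as KO libraries. Several later cardiac factors were low: Nkx2-5 did not pass 1.95 FPKM, Isl1 0.774, Tbx5 0.279 and Mef2c 0.126. Tbx20 was at 2.49 and 2.35 FPKM in WT, 0.384, 1.03 and 0.428 in Evx1as KO and 2.26, 2.95 and 2.78 in EVX1 KO. The means of Nkx2-5 and Isl1 were 1.31 and 0.620 FPKM in WT and 0.252 and 0.199 in EVX1 KO. Neither gene was tested, and the Tbx5 and Mef2c means were not lower in EVX1 KO. Of 5 tested genes of the extraembryonic endoderm list 3 were higher in EVX1 KO than in Evx1as KO. Of these, Gata6 and Sox17 were below 1 FPKM in every Evx1as KO library and passed the filter only through the other groups. Sox17 was at 8.81, 8.48 and 2.27 FPKM and Foxa2 at 11.8, 14.3 and 5.93 FPKM in EVX1 KO. Both were lowest in replicate 3, the library in which Myl7 was lowest, and Gata4 and Hand2 were not.

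**Figure D4:**
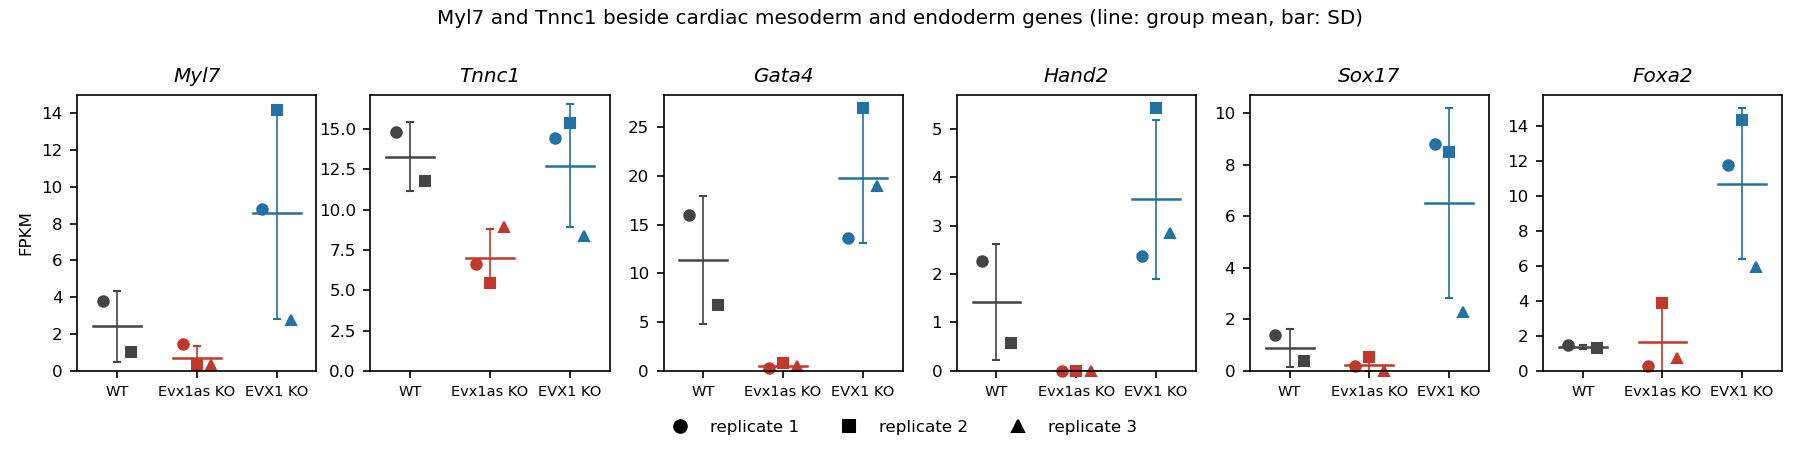
FPKM of Myl7 and Tnnc1 beside Gata4, Hand2, Sox17 and Foxa2, on linear axes from 0 that differ between panels. Points are libraries, lines group means and bars SD (n = 2 WT, 3 Evx1as KO, 3 EVX1 KO). Myl7, Tnnc1, Sox17 and Foxa2 are lowest within EVX1 KO in replicate 3, while Gata4 and Hand2 are lowest in replicate 1.

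Markers of cells that express contractile genes for other reasons were also counted. Of 8 tested fibroblast or feeder markers (of 11), 3 fell in Evx1as KO. Limma called none in EVX1 KO against WT (1 lower at an unadjusted p under 0.05). Of the 3, Col3a1 and Pdgfra were below 1 FPKM in every Evx1as KO library and passed the filter only through the other groups. The summed level of the 11 was 29.9 and 41.4 FPKM in WT, 16.3 to 26.0 in Evx1as KO and 25.4 to 34.6 in EVX1 KO. The levels of the 11 were uneven: Col1a1 reached 20.4 FPKM, Thy1 9.23, Pdgfra 7.15, Pdgfrb 3.45 and Fbn1 3.26 FPKM in their highest libraries, while Lum reached 0.131 and Postn 0.299 FPKM. Of 7 endothelium markers 2 were tested, and both fell in Evx1as KO (Kdr by 2.62 and Flt1 by 1.05 on the log2 scale). Kdr too was below 1 FPKM in every Evx1as KO library. Emcn was listed at 0 in all 8 libraries. Among the others not tested, the means in WT and Evx1as KO were 0.646 and 0.182 FPKM for Cdh5 and 0.0351 and 0.0128 FPKM for Tie1. They were 0.278 and 0.349 FPKM for Pecam1 and 0.239 and 0.357 FPKM for Tek, so these 2 were not lower. The summed level of the 7, mostly Kdr and Flt1, was 20.1 and 26.1 FPKM in WT and 6.59 to 9.73 in Evx1as KO. Of 8 pluripotent cell markers 5 rose in Evx1as KO, with summed levels of 542 and 677 FPKM in WT, 938 to 1089 in Evx1as KO and 668 to 688 in EVX1 KO. Of 4 tested neural markers 2 rose in Evx1as KO (summed level 98.7 to 115 FPKM, against 75.9 and 96.9 in WT). Sox1, 1 of the 2, reached 1 FPKM only in Evx1as KO, so it passed the filter only through that group. The part of these cell types in the falls of the contractile genes was not tested.

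Over the 8 libraries some of the contractile genes fell into 2 loose patterns, given as descriptions because the libraries share groups and depth. On the log2(FPKM + 1) scale Pearson's r was 0.91 between Tpm1 and Tpm2, 0.90 between Acta2 and Actg2 and 0.84 between Tagln and Cnn1. Myl7 went with Tnnc1 (r = 0.76) and against Myl9 (-0.56) and Tpm1 (-0.57). The actins did not divide cleanly between the patterns. Acta2 and Actc1 went together (0.80), and Tnnc1 had r of 0.57 with Acta2, 0.48 with Actc1 and 0.47 with Actg2. Myl7 had r of 0.43 with Actc1, 0.20 with Acta2 and 0.025 with Actg2. Of 7808 genes compared, all averaging 5 FPKM or more, those whose values were most like Acta2 over the 8 libraries were Zwint (r = 0.99), Dctn4, Gadd45g, Basp1 and Bcl10. For Actc1 they were Hsph1 (r = 0.97), Cpox, Clspn, Polrmt and Abr, and for Tnnc1 Zdhhc12 (r = 0.97), Ltbr, Isg15, Rdh10 and Dolpp1. None of the contractile genes compared was among them. Myl7 and Actg2, averaging 4.08 and 0.794 FPKM, were below this level and were not compared.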

How the data were processed

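RNA-seq of 8 libraries was used: 2 WT, 3 Evx1as KO and 3 labelled EVX1 KO, grouped by their labels. The authors deposited 1 table of FPKM values per gene for all libraries. CASAVA, TopHat2 2.0.11 and the builds mm10 and mm9 are named without a role, per the submitters' processing notes; a stranded TruSeq kit was used, per the labels' protocols. Not given in the sources used here are the FPKM program, its annotation and its strand setting. None of the 10 positions overlapped its place on GRCm38, so positions are as in the deposited table, and of the promoters on GRCm38.p6 only sequence was used. Read counts were not analysed here, so no counting interval is given; relative depth was estimated from steps between low FPKM values, and 29.8% to 32.5% of the low genes used lay at the estimated step. Reads shared with overlapping or antisense genes cannot be separated.

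Of 45772 lines, 3527 were blank, and symbols on several lines (2660, with identical values) were used once. The 13188 genes that reached 1 FPKM in 2 or more libraries entered 1 linear model of log2(FPKM + 1) with a mean per group (limma 3.58.1, R 4.3.3, empirical Bayes with intensity trend, two-sided). Benjamini-Hochberg adjusted p under 0.05 over all genes was called a change. Both comparisons with WT share its 2 libraries. Files and figures were made with Python 3.11.15, pandas 2.3.3, numpy 2.4.6 and matplotlib 3.10.9, and the fit was tested on simulated data.

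The 10 genes and the lists were chosen with earlier results of these data known. Lists were other smooth muscle, other sarcomere, nonmuscle actomyosin, SRF regulators and targets, cardiac and mesoderm regulators, TGF-beta signalling, and fibroblast, endothelium, pluripotent, extraembryonic endoderm and neural markers; members of different lists overlap. The text names Evx1, Evx1as, the 10 genes, Srf, Myocd, Mkl1 and Mkl2, up to 4 genes per list with the largest change, and the 5 genes most alike to Acta2, Actc1 and Tnnc1. Genes named to show a low or a higher level, the actin levels or the make-up of a marker list were picked with their values in view. The 18 alternatives were 2 other pseudocounts (0.1 and 0.5), 2 other filters (none, 5 FPKM), 2 scalings, a replicate block, a fit of 2 groups, no intensity trend, array weights, and leaving out each of the 8 libraries.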

Additional observations from a re-analysis of the deposited data

How the results depend on the processing

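Of the 18 alternatives, the number of contractile genes called in Evx1as KO against WT (6) moved to 2 with no filter on low values and to 3 with no intensity trend, and lay between 1 and 7 when a library was left out. In EVX1 KO against WT the number (0) was 5 with array weights and 0 to 4 without a library. Between the knockouts (3) it was 0 with no filter, 1 with no intensity trend and 0 to 3 without a library. With the replicate number as a block it was 6 (4 of them shared with the unblocked fit), 1 and 3 (2 shared). The 1 called in EVX1 KO against WT was Acta2 (limma adjusted p = 0.00775). Deviations of same-numbered libraries correlated between -0.174 and 0.109, and those of differently numbered libraries between -0.236 and 0.257. These values do not show whether libraries with the same number share more than that number. In Evx1as KO against WT the block raised the SE of Actg2, Tagln and Tnnc1. It lowered that of the other contractile genes, most for Acta2 (from 0.36 to 0.11). Some differences that were not called with all libraries changed sign. Leaving out a library gave log2 differences from -0.29 to 0.040 for Srf in Evx1as KO against WT. In EVX1 KO against WT it gave -0.26 to 0.23 for Evx1, -0.68 to 0.45 for Actc1 and -0.25 to 0.16 for Tnnc1. Between the knockouts it gave -0.20 to 0.15 for Tagln, -0.12 to 0.12 for Tpm2, -0.30 to 0.49 for Cnn1 and -0.91 to 0.10 for Myl9. With the replicate block Evx1 in EVX1 KO against WT was 0.15. With array weights Actc1 was 0.16 and Tnnc1 0.13 in EVX1 KO against WT, and Tagln was 0.027 and Tpm2 0.016 between the knockouts. The cause of these changes was not tested. With 2 WT libraries, leaving out either leaves a lone library, whose spread is taken to be that of the knockouts. Neither scaling turned the direction of a contractile gene. Low FPKM values, such as those of Actg2 and Myl7, rest on few reads.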
